A study of Mus musculus with 2 samples.

Results

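The genes described here are those of death receptor and tumor necrosis factor (TNF) signaling. They were chosen by name, as the array probes annotated to Fas, Fasl, Tnfsf10, Tnfrsf10b, Tradd, Fadd, Ripk1, Casp8, Tnf or Tnfrsf1a. Of these 10 genes, 9 were paired with a probe, each with 1 probe, out of 19084 genes and 26423 probes on the array. No probe is paired with Ripk1 in the annotation used here, so that gene was not analysed here. The study sorted spleen cells of naïve NOD-SCID mice, 6 to 8 weeks of age, into Z(+) cells, which bind the peptide Zfra, and Z(-) cells, which do not. Both fractions share the strain, the age and the absence of any culture or treatment, and 1 sample of total RNA was taken from each. The number 8 in the design text was read as 8 pooled spleens. These mice have the scid mutation in Prkdc, lack mature T and B cells, and have poorly active NK cells on the NOD background, so the fractions are not those of an intact spleen. The meaning of Z(+) as Zfra binding rests on how the cells are named and on the labelled Zfra used to sort other mice of the study.

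Death receptors are the members of the TNF receptor family that carry a death domain in their cytoplasmic tail. When Fas ligand, TRAIL or TNF binds, Fas, TRAIL receptor or TNF receptor 1 gathers the adaptors FADD or TRADD and the kinase RIP (RIPK1), and caspase-8 is recruited and activated through FADD. TNF receptor 1 signals first through TRADD and RIP to NF-κB and only under some conditions to death. Zfra is known to bind TRADD, FADD and RIP, which is the reason to look at their transcripts in the cells that bind Zfra. Fas ligand is made mainly by NK cells and activated T cells, and TNF mainly by macrophages and monocytes.

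Transcripts of nearly the whole set had similar intensities in both fractions, and Fasl was the exception. Fasl was 14.3-fold lower in Z(+), while the other 8 measured genes lay between 1.499-fold lower and 1.33-fold higher. Of the 9 genes, 88.9% were within 2-fold, against 91.3% of all genes, so this similarity is near that of the whole array. The values are linear array intensities in arbitrary units, and a log2 difference is that of Z(+) minus Z(-). The levels of different genes are not set against each other, since brightness depends on the probe. With 1 sample per fraction the fractions cannot be tested against each other, and no p-values are printed. Each sample was measured on 2 technical arrays, whose single values could be recovered below an intensity of 2000, and these repeat the hybridization only. Of 7 genes with recovered values, Tnfsf10, Fas, Tnfrsf10b and Fadd had a single possible pair of arrays in both samples. In these 4 the Z(+) arrays lay apart from the Z(-) arrays. How often the arrays of all probes lie apart was not counted, so the separation is not read as particular to these genes. For Tnf and Casp8 in both samples, and for Fasl in Z(-), several pairs could give the deposited value and the one within 1.5-fold was taken, so the closeness of those arrays is in part set by that choice. The separation covers array error and neither the sort nor the mice. RNA of a whole fraction cannot tell fewer cells of a type from less RNA per cell.

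**Figure D1:**
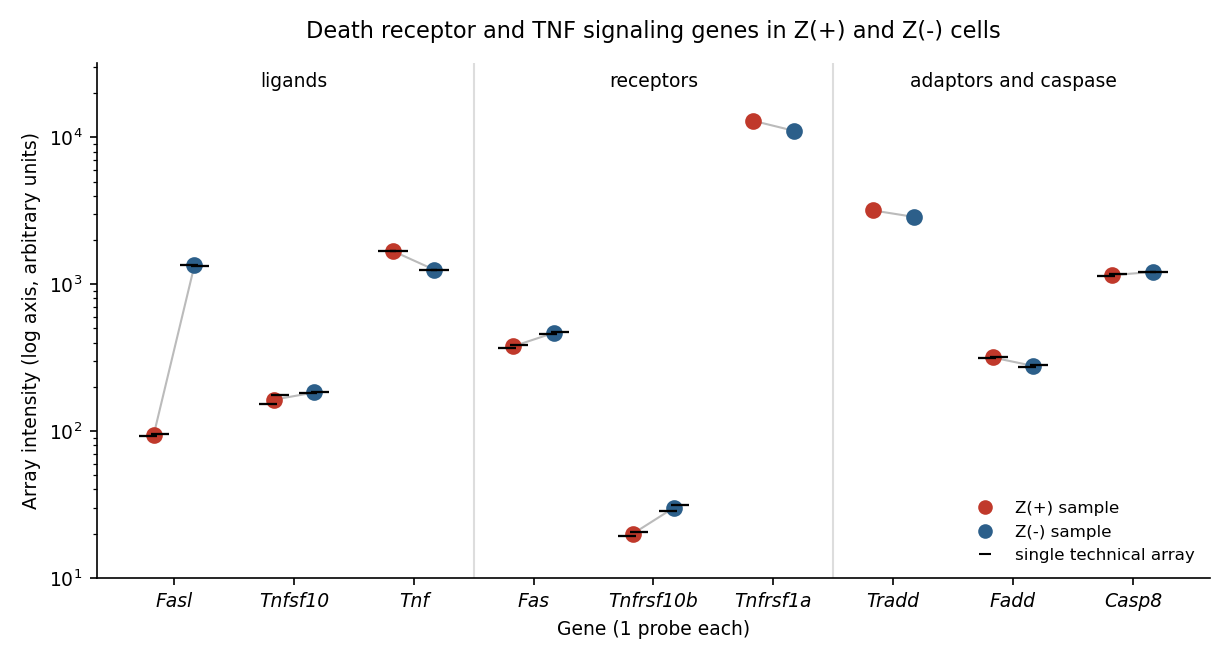
Array intensity (log axis, arbitrary units) of the 9 measured genes, with the Z(+) sample in red to the left of the Z(-) sample in blue, and short black lines for single technical arrays where they could be recovered. Fasl stands at 94.6 in Z(+) and 1348 in Z(-), and each of the other genes differs by less than 2-fold.

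Among the ligands, Fasl, which encodes the membrane protein that triggers death through Fas, measured 94.6 in Z(+), against 1348 in Z(-). On its single arrays, it was 92.9 and 96.2 in Z(+), against 1356 and 1339 in Z(-). The log2 difference was -3.83, and single arrays placed it between -3.87 and -3.80. Both Z(+) arrays were far below both Z(-) arrays, also with any of the 3 pairs that could give the Z(-) value, whose lowest array is 892, and the gene has no second probe with which to compare the size of the difference. Tnfsf10, which encodes TRAIL, had 163 in Z(+) and 183 in Z(-), with single arrays at 152 and 175 in Z(+) against 182 and 184 in Z(-). The ranges did not overlap, but the log2 difference was -0.16, and the Z(+) arrays differed from each other by more than the fractions did. Tnf, the founding cytokine of the family, was the ligand that was brighter in Z(+), at 1676 against 1255 in Z(-). Its arrays gave 1674 and 1677 in Z(+), against 1258 and 1253 in Z(-), each the pair within 1.5-fold among several that fit. Among the other pairs, a Z(+) array could be as low as 352 and a Z(-) array as high as 1706. The log2 difference was 0.42, which is 1.33-fold. The 3 ligands therefore did not move as a group.

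Fasl and Tnf lay at the lower and upper ends of the set, and the 250 bases before the start of these genes are shown so that the regulatory sequence can be read beside the values. The sequences are from RefSeq, build GRCm38.p6, which lists a promoter for 8 of the 10 genes. The Fasl promoter is chr1:161788496-161788745 on the minus strand, and the Tnf promoter is chr17:35202008-35202257 on the minus strand. Capitals mark matches, on either strand, to the letters TATAAA that make up a core promoter element, to the GC box with its letters GGGCGG, to the core of NFAT sites with its letters GGAAA, to the AP-1 site with its letters TGACTCA and to the T-box site with its letters GGTGTGA.
Fasl: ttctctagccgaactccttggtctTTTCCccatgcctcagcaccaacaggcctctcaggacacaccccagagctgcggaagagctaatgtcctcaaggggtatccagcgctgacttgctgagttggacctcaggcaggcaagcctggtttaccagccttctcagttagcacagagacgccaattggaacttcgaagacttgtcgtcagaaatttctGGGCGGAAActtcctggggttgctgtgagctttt
Tnf: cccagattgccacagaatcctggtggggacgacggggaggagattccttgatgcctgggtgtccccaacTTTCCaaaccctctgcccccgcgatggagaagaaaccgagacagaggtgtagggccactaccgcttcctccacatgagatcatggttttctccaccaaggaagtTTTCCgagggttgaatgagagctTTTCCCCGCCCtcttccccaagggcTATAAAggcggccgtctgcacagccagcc
The Fasl window held a GC box that begins 34 bases before the start and overlaps an NFAT core at 30, with another match to that core at 226. The Tnf window held the letters TATAAA at 29, a GC box at 49 and matches to the NFAT core at 54, 77 and 181. Of 32817 mouse promoters of the same length, 12.4% held the letters TATAAA, 32.7% the GC box, 55.6% the NFAT core, 4.46% the AP-1 site and 3.33% the T-box site. The last pair had no match in either window, which says only that these letters are not in it. A match is a description of the sequence and is no evidence that a factor binds there.

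Among the receptors, Fas, the receptor of Fas ligand, had 378 in Z(+) and 467 in Z(-), with arrays at 370 and 386 in Z(+) against 457 and 476 in Z(-). The log2 difference was -0.30, which is 1.24-fold lower. The receptor thus differed far less than its ligand between the same samples. Tnfrsf10b, which encodes the mouse TRAIL receptor, had 20.02 in Z(+) and 30.01 in Z(-), with arrays at 19.4 and 20.7 in Z(+) against 28.7 and 31.3 in Z(-). Its log2 difference of -0.58 came from one of the dimmer probes, at percentile 22.9 of the mean log2 intensity of all genes. At intensities of 20 to 100, repeated arrays of all probes differed by a median of 1.16-fold in Z(+) and 1.06-fold in Z(-), with 95th percentiles of 2.30-fold in Z(+) and 1.499-fold in Z(-). The difference of 1.499-fold between the fractions is below the percentile of the Z(+) arrays and about equal to that of the Z(-) arrays. Tnfrsf1a, which encodes TNF receptor 1, was bright in both fractions at 12987 in Z(+) and 11103 in Z(-). The log2 difference was 0.23, which is 1.17-fold higher. Its single arrays could not be recovered at this brightness.

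The adaptors that Zfra is known to bind differed little between the fractions. Tradd, the adaptor of TNF receptor 1, had 3184 in Z(+) and 2877 in Z(-), a log2 difference of 0.15, and its single arrays were not recovered. Fadd, the adaptor that joins death receptors to caspase-8, had 317 in Z(+) and 278 in Z(-). Its arrays gave 316 and 318 in Z(+), against 274 and 281 in Z(-), and the log2 difference was 0.19. Casp8, which encodes the initiator caspase of this pathway, had 1154 in Z(+) and 1213 in Z(-). Its arrays, each taken as the pair within 1.5-fold among several that fit, gave 1138 and 1169 in Z(+) against 1219 and 1207 in Z(-). The log2 difference was -0.07. These differences are 1.11-fold, 1.14-fold and 1.05-fold. RNA measures neither the amount of the adaptor proteins nor their binding to Zfra.

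Of the 9 measured genes, 1 was at least 2-fold lower in Z(+) and 0 were at least 2-fold higher. Among all 19084 genes, 8.71% were past 2-fold in either direction, with 6.27% lower and 2.44% higher in Z(+), so a single gene of 9 is near the background share. The median log2 difference of the set was -0.07, against 0.03 over all genes. Without Fasl the median of the other 8 was 0.04, with 4 above and 4 below 0. In brightness, 8 of the 9 reached the median of all genes, an intensity of 121, and Tnfrsf10b was the one below. Over all 19084 genes, 0.241% had a difference as low as that of Fasl or lower, which is 46 genes with Fasl, and 24 of them were below the median brightness.

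**Figure D2:**
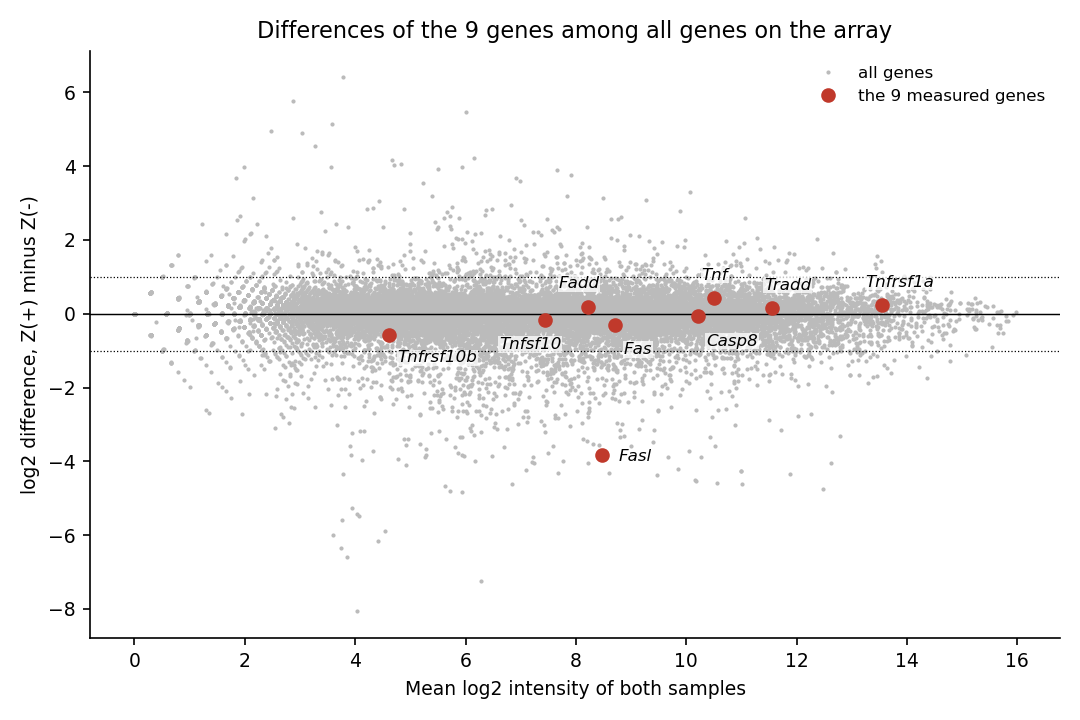
The log2 difference, Z(+) minus Z(-), of each gene on the array (grey points) against its mean log2 intensity, with the 9 measured death receptor and TNF signaling genes in red and dotted lines at a 2-fold difference. Fasl lies at -3.83, and the other 8 genes lie inside the dotted lines.

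The wider TNF family held other transcripts that were lower in Z(+), on the side of both ligands and receptors, where 7 of 39 were past 2-fold against the 6.27% of all genes. Of 15 other measured ligands, 3 were lower in Z(+) by at least 2-fold and 0 higher by as much, and the median log2 difference was -0.11. Tnfsf14, which encodes LIGHT, had 220 in Z(+) and 576 in Z(-), and its arrays of 202 and 237 in Z(+) were apart from those of 592 and 561 in Z(-). Tnfsf13b, which encodes the B cell survival factor BAFF, had 1268 in Z(+) and 2590 in Z(-), just past 2-fold at 2.04-fold lower. Tnfsf4, the ligand of OX40, was 3.15-fold lower but dim, at 25.5 in Z(+) and 80.5 in Z(-). Ltb, which encodes lymphotoxin beta, was bright at 13794 in Z(+) and 17190 in Z(-), a difference of 1.25-fold.

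Of 24 other measured receptors, 4 were lower in Z(+) by at least 2-fold and 0 higher by as much, and the median log2 difference was -0.18. Tnfrsf18, which encodes the costimulatory receptor GITR, was the lowest of them. One of its probes had 221 in Z(+) and 1931 in Z(-), the other 106 in Z(+) and 750 in Z(-), and the log2 differences were -3.13 and -2.82. Both probes of Tnfrsf18 thus gave a like size. For Cd27, a receptor of lymphocytes, the 3 probes did not agree, with log2 differences of -3.69, -1.05 and -0.03. Tnfrsf25, a death receptor of lymphocytes, had 45.1 in Z(+) and 168 in Z(-), and Tnfrsf9, which encodes the costimulatory receptor 4-1BB, had 62.0 in Z(+) and 155 in Z(-). Both were below the median brightness of all genes. Tnfrsf1b, which encodes TNF receptor 2, went the other way, with probes 1.96-fold and 1.22-fold higher in Z(+), at 4115 and 20356 in Z(+) against 2099 and 16731.5 in Z(-). Tnfrsf21, which encodes death receptor 6, was 1.62-fold higher, at 4951 in Z(+) and 3059 in Z(-). Among these 24 receptors, the 15 ligands and the ligands and receptors of the main set, 45 genes in all, none had a lower difference than Fasl.

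Genes that act upstream and downstream of the receptors were mostly within 2-fold, as were 91.3% of all genes. Of 26 measured partners in the receptor complexes, such as TRAFs, ubiquitin ligases and kinases, 25 stayed within 2-fold, with 0.05 as the median log2 difference. Tnfaip3, which encodes the brake A20, had 12525 in Z(+) and 13069 in Z(-), and Sharpin, a subunit of the linear ubiquitin ligase, had 12290 in Z(+) and 11471 in Z(-). Traf2, an adaptor of TNF receptors, was past 2-fold at a dim 84.9 in Z(+) and 41.5 in Z(-), and its single arrays placed the log2 difference between 0.89 and 1.18. Cflar, which encodes the caspase-8 inhibitor cFLIP, had log2 differences of 0.68 and -0.09 from its 2 probes. All 14 measured caspases and death effectors were within 2-fold, with a median of 0.22. Ripk3, a kinase of necroptosis, had 3802 in Z(+) and 3321 in Z(-), Casp2, which encodes caspase-2, had 4248 in Z(+) and 3516 in Z(-), and Apaf1, which activates caspase-9, had 3787 in Z(+) and 2846 in Z(-).

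Of 9 genes that process TNF or control the decay of its mRNA, 8 were brighter in Z(+), against 54.1% of all genes, and the median log2 difference was 0.39, against 0.03 over all genes. Adam17, the protease that sheds TNF, had 5282 in Z(+) and 4043 in Z(-), and Rhbdf2, which carries ADAM17 to the surface, had 3048 in Z(+) and 2080 in Z(-). Zfp36, whose product tristetraprolin destabilizes Tnf mRNA, had 31096 in Z(+) and 25208 in Z(-), and its relative Zfp36l1 had 22404 in Z(+) and 11714 in Z(-). Timp3, an inhibitor of ADAM17, is among the 8 and was the one past 2-fold, but its Z(-) arrays of 0.990 and 34.3 did not repeat each other. Of 23 measured genes that TNF is known to induce, 22 were within 2-fold, and the median was -0.10. The NF-κB inhibitor gene Nfkbia had 21042 in Z(+) and 21785 in Z(-), Il1b, which encodes interleukin-1β, had 46526 in Z(+) and 50370 in Z(-), and the chemokine gene Ccl3 had 25692.5 in Z(+) and 34944.5 in Z(-). Ccl5, a chemokine that is also made by NK and T cells, was the exception at 2238 in Z(+) and 22398 in Z(-), which is 10.01-fold lower.

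**Figure D3:**
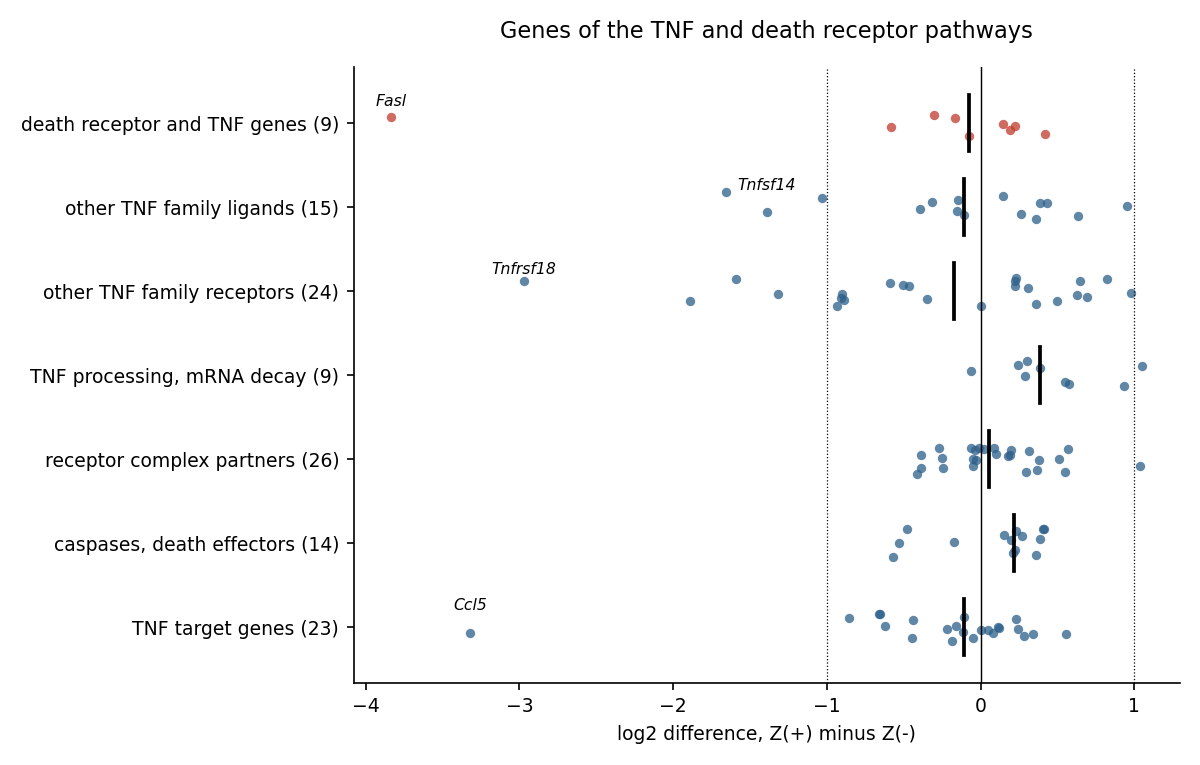
The log2 difference, Z(+) minus Z(-), of each measured gene in 7 groups (numbers of genes in brackets), with a black bar at the median of the group and dotted lines at a 2-fold difference. Fasl, Tnfrsf18 and Ccl5 stand apart to the left of their groups, and the medians lie between -0.18 and 0.39.

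The lower Fasl in Z(+) went along with lower markers of NK cells, T cells, basophils and mast cells, and neutrophils and their precursors. Of 14 measured NK cell markers, 12 were lower in Z(+) by at least 2-fold and 0 higher by as much, the median log2 difference was -3.88, and the summed intensity was 4736 in Z(+) and 66032 in Z(-). Gzma, which encodes granzyme A, was 16.4-fold lower at 1566 in Z(+) and 25763 in Z(-), and Prf1, which encodes perforin, 9.90-fold lower at 149 in Z(+) and 1474 in Z(-). No marker of the list was at 0. Ncr1 was near the bottom of the scale in both, at 5.52 in Z(+) and 5.496 in Z(-), and Eomes was not lower in Z(+), at 898 against 661 in Z(-). The log2 difference of Fasl was close to the median of this list. Of 10 T cell markers, 7 were at least 2-fold lower, with a median of -2.38 and a summed intensity of 2366 in Z(+) and 14520 in Z(-). The other 3, Cd4, Cd8a and Cd8b1, were within 2-fold, with log2 differences of 0.13, -0.78 and -0.05. All 3 were below the median brightness of all genes, with Cd4 at 40.1 in Z(+) and 36.5 in Z(-). These mice lack mature T cells, so the list stands for its genes and is not read as T cells. Of 8 markers of basophils and mast cells, 7 were at least 2-fold lower. Their median was -3.96, with a sum of 4545 in Z(+) and 39795 in Z(-). Of 11 markers of neutrophils and their precursors, 7 were at least 2-fold lower and 0 higher by as much. Their median was -1.47, with a sum of 166860 in Z(+) and 267765 in Z(-). The other 4, Ltf, Camp, S100a9 and S100a8, were within 2-fold, with log2 differences of -0.51, -0.39, -0.30 and 0.13. Ltf, Camp and S100a9 were the brightest of the list, and S100a8 was dim at 18.1 in Z(+) and 16.5 in Z(-). Which cells these markers come from, and the part of those cells in the Fasl result, were not tested.

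Tnf and most of its processing genes were brighter in Z(+), as were all 14 macrophage markers and 54.1% of all genes. Of these markers, 8 were at least 2-fold higher, against 2.44% of all genes. Their median was 1.43 on the log2 scale, with a summed intensity of 72364 in Z(+) and 40527 in Z(-). The 9 monocyte markers had a median of 0.13 and a sum of 100727 in Z(+) and 86437 in Z(-). The log2 difference of Tnf, 0.42, lay between these medians. The part of macrophages and monocytes in the values of Tnf and its processing genes was not tested. The remaining markers had medians of -0.02 for B cells and -0.92 for dendritic cells. Of the 8 dendritic cell markers, 2 were at least 2-fold lower, against 6.27% of all genes. As for the cells themselves, Hyal2, the gene of the membrane protein that the study names as the Zfra receptor, was read by 1 probe. It had 670 in Z(+) and 608 in Z(-), a difference of 1.102-fold. Cd3d, a chain of the T cell receptor complex, had 1128 in Z(+) and 9971 in Z(-).

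**Figure D4:**
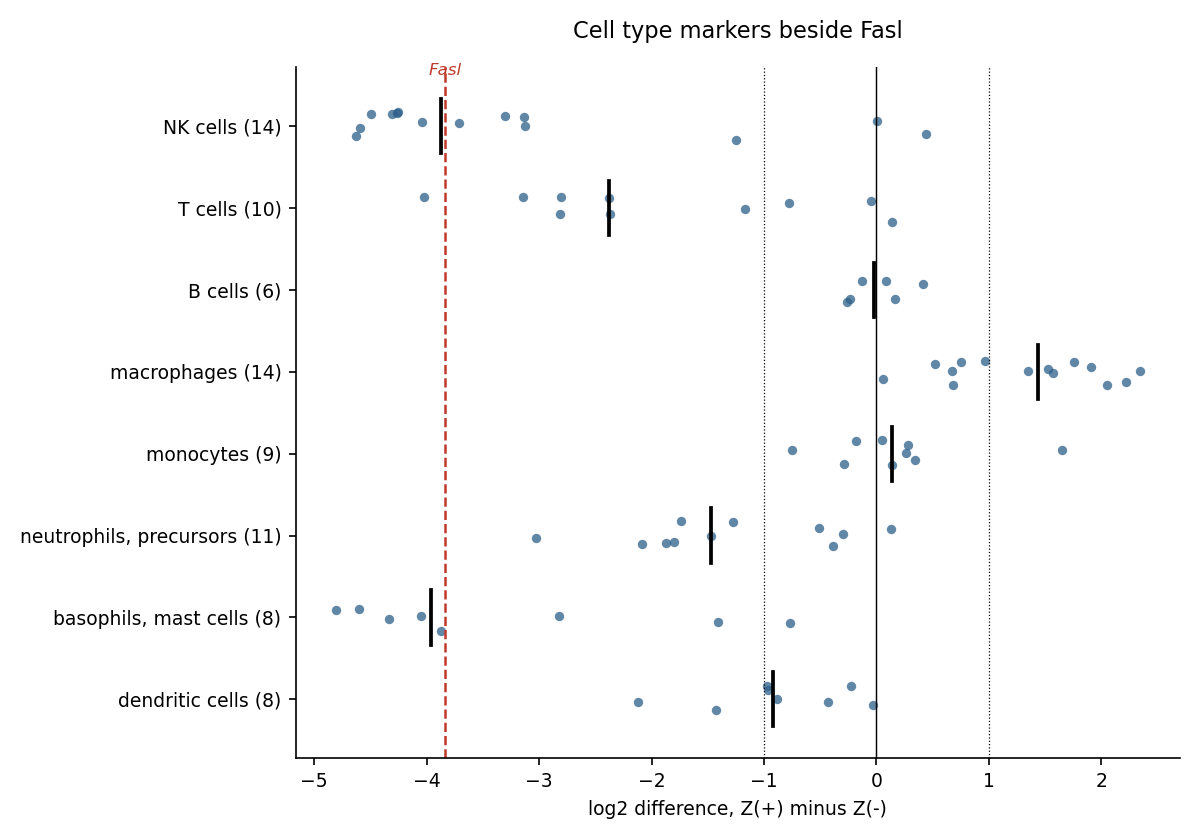
The log2 difference, Z(+) minus Z(-), of each measured marker of 8 cell types (numbers of genes in brackets), with a black bar at the median, dotted lines at a 2-fold difference and a red dashed line at the difference of Fasl. The medians of NK cells (-3.88) and of basophils and mast cells (-3.96) lie close to the line of Fasl at -3.83.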

How the data were processed

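Total RNA of 1 Z(+) and 1 Z(-) sample was amplified with Cy5 labelling and measured on a 1-colour mouse oligonucleotide array, with 2 technical arrays per sample. The authors deposited 1 linear intensity per probe and sample, with medians of 85.8 in Z(+) and 88.5 in Z(-). How the images were read, corrected for background and normalized is not given in the sources used here. Values under 1 were raised to 1 before taking log2, and probes of a gene were averaged. The samples were not scaled again, because all genes together had a median difference of 0.03. The platform annotation names 1 gene for 21876 probes, several for 0 and none for 4547, and the gene IDs of all 9 member probes matched RefSeq. A gene was counted as past the threshold at a log2 difference of 1, which is 2-fold.

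The single technical arrays were recovered from the deposited intensities, which below 2000 are the mean of a pair of whole numbers, each times a factor of its array. Z(+) had factors of 0.968 and 1.03 with 98.6% of probes below 2000 split, and Z(-) had 0.990 and 1.01 with 98.98% split. Where several pairs of numbers gave a value, the only pair within 1.5-fold was taken. Below 400 the simulated pairs were all found again. Between 1000 and 2000, where the split covered 97.6% of the Z(+) and 98.5% of the Z(-) values, several pairs usually fit, and part of the pairs in simulated data stayed unresolved. Above 400, a split was also found for many numbers drawn without this structure. Single arrays above 1000 are therefore less certain. The counting of differences was also tested on simulated data. With 1 sample per fraction, the precision is limited by the lack of biological replicates, and the technical arrays cover array error only. The members, gene lists and settings were chosen with earlier results of these data known. Every member was named. In each of 6 pathway lists, up to 6 genes at or above the median brightness and past 2-fold were named, or the 2 brightest where fewer than 2 qualified, and the marker lists, for which the rule takes the 3 brightest and the 2 with the largest difference, are given mainly by their counts. Ltb, Tnfsf4, Tnfrsf25, Tnfrsf9, Tnfrsf1b, Tnfrsf21, Traf2, Cflar, Apaf1, Adam17, Rhbdf2, Timp3, Nfkbia, Prf1, Ncr1, Eomes and Hyal2 were named after their values were seen. So were Cxcl10, Sod2, Cd4, Cd8a, Cd8b1 and S100a8. The alternatives were 3 scalings, the brightest probe, a pseudocount of 50, a floor of 32, a filter on dim genes and thresholds of 1.5-fold and 4-fold. Computations used Python 3.11.15 with numpy 2.4.6 and pandas 2.3.3, statsmodels 0.14.6 (loess, span 0.3) and matplotlib 3.10.9.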

Additional observations from a re-analysis of the deposited data

How the results depend on the processing

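The count of members at least 2-fold lower in Z(+), 1, and at least 2-fold higher, 0, was the same under every alternative run, including thresholds of 1.5-fold and 4-fold. These thresholds were applied to the main values only, where Tnfrsf10b fell just inside 1.5-fold at 1.499-fold lower. Its log2 difference was -0.67 with loess and -0.60 after quantile normalization, both past 1.5-fold. The log2 difference of Fasl was -3.79 with each sample centred on its median, -3.77 after quantile normalization and -3.27 with a pseudocount of 50, all further from 0 than a 4-fold difference. The median of the members stayed near 0, at -0.029 with median centring, -0.00021 after quantile normalization, 0 with a floor of 32 and 0.037 over the 8 members at or above the median brightness. Tnfrsf10b had a difference of 0 with the floor of 32, since both of its values lie under it, and the other members kept their sign under the 6 settings tried. Of 72 counts of pathway genes past 2-fold under other settings, 8 were not within 1.5 times the main count. They concern 1 or 2 genes near the threshold each. Many of the 72 compare a count of 0 with 0, and the tolerance of 1.5 times also passes small falls. The other ligands at least 2-fold lower fell from 3 to 2 with median centring, quantile normalization and the pseudocount of 50. The other receptors at least 2-fold lower fell from 4 to 3 with that pseudocount. Past 2-fold, the array held 466 higher and 1197 lower genes, against 205 higher and 641 lower with a pseudocount of 50, and 308 higher and 896 lower with a floor of 32. The medians of all genes moved by less than 0.1 on the log2 scale under each scaling. No paired analysis was possible because each fraction is a single sample. Dim probes and the lack of sorted replicates limit these values.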
